A study of Homo sapiens with 8 samples.

Results

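The response of MUG-Chor1 cells to TNF-α was read from 4 of the 8 expression arrays of the series. MUG-Chor1 is an established human line grown from a chordoma, a rare cancer of the axial skeleton whose cells resemble those of the embryonic notochord. In 1 array the RNA came from cells kept for 1 week with recombinant human TNF-α at 10 ng/mL, given in 3 additions over the week, and in the other 3 it came from control cells grown without it. The 4 arrays were picked by the cell line and treatment in their titles, and no measured value entered the choice. Treated and control cells both grew as monolayers on gelatin, in a mixture of IMDM and RPMI medium with fetal bovine serum. A monolayer of a single tumour's line lacks the stroma and immune cells of a tumour, and a single TNF array has no replicate of its own. The remaining 4 arrays, 3 controls and 1 TNF array of the chordoma line U-CH1, entered the estimate of the spread and the comparison between lines. For the controls the labels give no culture time and no schedule of additions. They also do not state whether each control was its own culture. The p-values set each difference only against the spread of the control arrays of both lines, which may therefore be technical. They hold no spread between TNF arrays.

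TNF-α is a cytokine of inflammation that binds TNF receptor 1 on most cells and recruits adapter proteins of the TRAF family. The kinase complex activated there leads to breakdown of the inhibitor IκBα, and NF-kB dimers then enter the nucleus and switch on chemokines, cytokines, adhesion molecules and their own inhibitors. Chordoma cells are known by the notochord transcription factor brachyury, encoded by TBXT, together with keratins and a cartilage-like matrix under SOX9.

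All values are log2 signals, 1 probe set per gene, and a difference is the TNF array minus the mean of the 3 controls. The 4 arrays had medians of 2.52 to 2.57. Precision is limited by how few arrays there were. Over the 16986 genes tested, controls 1 and 2 correlated at r = 0.981 and control 3 with them at 0.960 and 0.959, while the TNF array correlated with the 3 controls at 0.931 to 0.933. Several chordoma markers were bright on the controls, with TBXT at 9.40 to 9.46, KRT19 at 9.76 to 9.86 and SOX9 at 9.07 to 9.24. Others were dim, with S100A1 at 2.84 to 4.29 and S100B at 2.65 to 3.73. The keratins KRT8 (4.24 to 4.98) and KRT18 (4.53 to 5.19) were also above 2.57, the median over every deposited value. Single markers of other cell types were also bright on the controls, CD68 of the leukocyte list at 8.02 to 8.25 and KDR of the endothelial list at 6.51 to 7.52, while PTPRC read 1.03 to 1.19 and CDH5 2.20 to 2.72.

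A total of 250 genes rose and 239 fell with TNF, from limma at a Benjamini-Hochberg adjusted p under 0.05, which is 1.47% and 1.41% of the genes tested. All 489 lay outside the range of the 3 controls. The smallest called rise was 1.11 and the smallest called fall 1.12 in size. At an unadjusted p under 0.05, 1265 genes were higher and 879 lower. Differences of more than 2 were called in 100 genes that rose and 101 that fell, and differences of more than 4 in 13 and 12. Without any test, 344 genes (2.03%) lay more than 1 above the highest control and 332 (1.95%) more than 1 below the lowest. Simply above the highest control were 5989 genes (35.3%) and below the lowest 4060 (23.9%), so a TNF value outside the control range was by itself common. Leaving out control 1 left 137 rises and 147 falls, and leaving out control 2 left 165 and 195. Of the called genes 449 were protein-coding, 17 long non-coding RNAs and 9 transcribed pseudogenes.

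**Figure D1:**
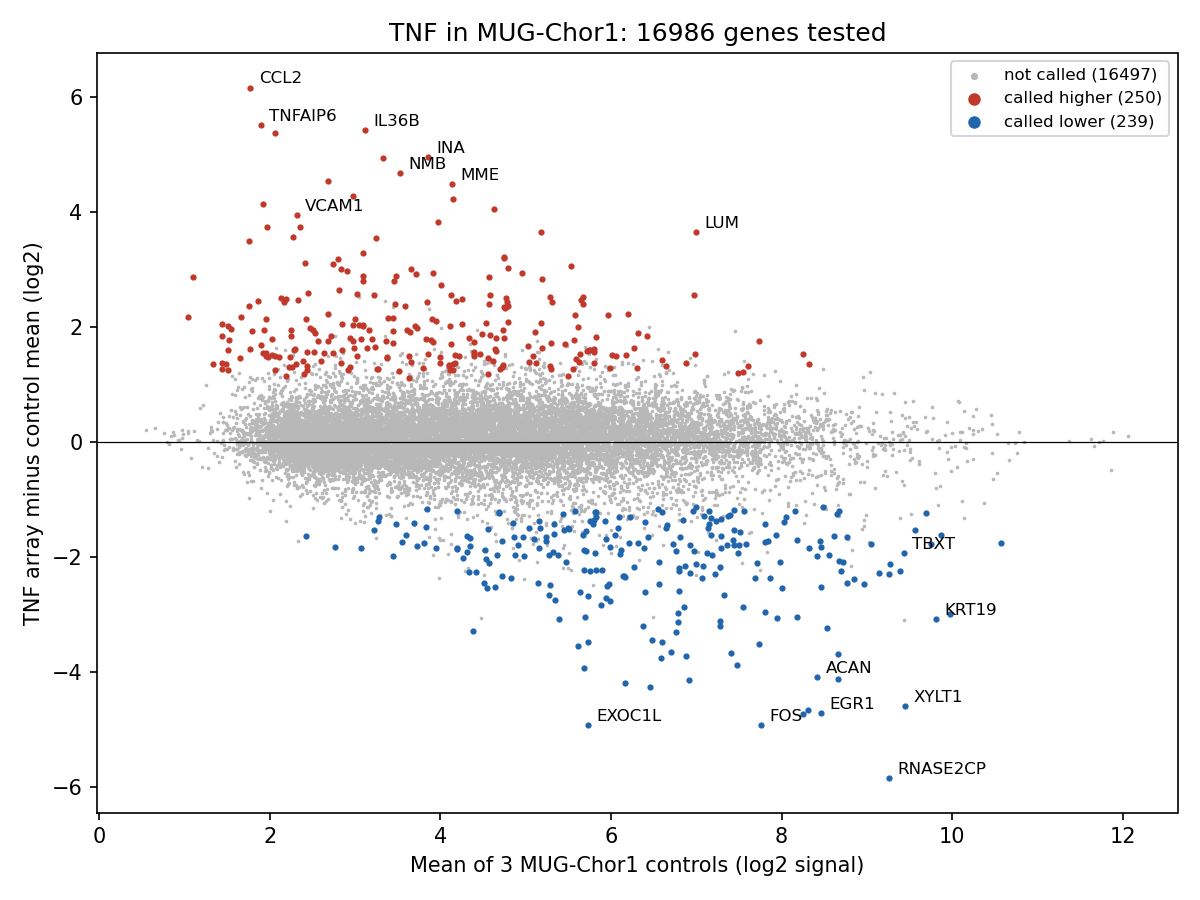
Difference between the TNF array and the mean of the 3 MUG-Chor1 controls (y axis, log2) against that mean (x axis, log2 signal) for 16986 genes. Red points are the 250 genes called higher and blue points the 239 called lower, from CCL2 at 6.17 to RNASE2CP at −5.84.

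CCL2 and TNFAIP6 had the highest called differences of the 16986 genes tested. CCL2, the chemokine that attracts monocytes, read 1.21, 0.99 and 3.11 on controls 1 to 3 and 7.94 with TNF, a difference of 6.17 ± 0.66 (SE; adjusted p = 0.000745). TNFAIP6, whose product TSG-6 binds hyaluronan, read 1.84, 1.78 and 2.05 on the controls and 7.40 with TNF (5.51 ± 0.27, SE; adjusted p = 1.22e-05). Its controls lay under 2.57 and the files used hold no detection call, so the size of this and other rises from such dim controls is uncertain. In both genes the TNF array lay far above all 3 controls, and for CCL2 control 3 lay above the other two. IL36B, a cytokine of the IL-1 family, went from 3.12 ± 0.15 (SD, n = 3) to 8.55, and PTX3, a secreted pattern recognition protein, from 3.32 ± 1.11 (SD, n = 3) to 8.27. ATP6V0D2, a subunit of the vacuolar proton pump, went from 2.06 ± 0.16 (SD, n = 3) to 7.43. Others among the 25 largest rises had varied roles: INA, a neuronal intermediate filament, rose by 4.96, NMB, the peptide neuromedin B, by 4.69, and MAP2, a microtubule-associated protein, by 3.21. STC1, a secreted glycoprotein hormone, rose by 3.49 and GREM1, a secreted BMP antagonist, by 3.55.

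**Figure D2:**
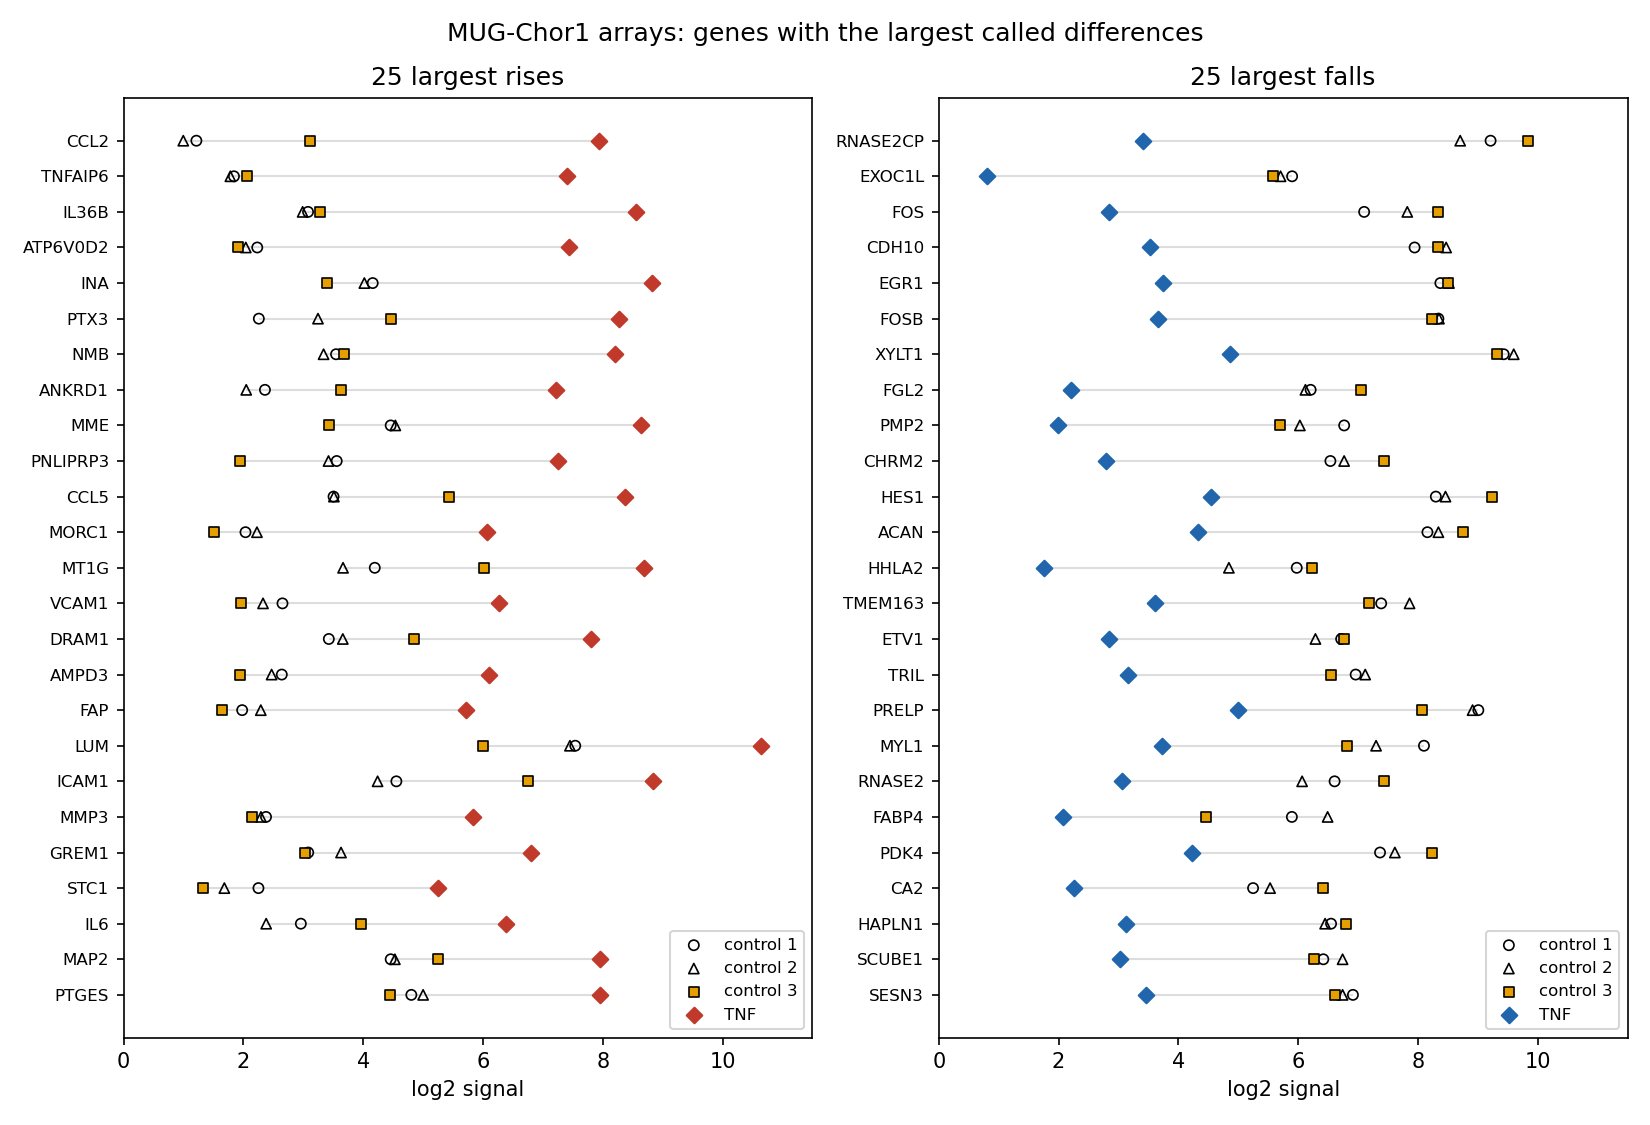
Log2 signal (x axis) of the 25 genes with the largest called rises and the 25 with the largest called falls on each MUG-Chor1 array. Open circles and triangles are controls 1 and 2, orange squares control 3 and diamonds the TNF array, which lies outside the control range in every row; control 3 lies more than 1 from the mean of controls 1 and 2 for CCL2, CCL5, ICAM1, MT1G, PTX3, ANKRD1, DRAM1, IL6, LUM, PNLIPRP3, MME, FABP4, RNASE2 and CA2.

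NF-kB subunits and inhibitors were mostly above the controls, and few were called. Over all genes tested, 35.3% lay above the control range and 1.47% were called higher. Of 5 subunits, 4 read above the control range, and NFKB2, the p100 subunit, was called: it went from 5.21, 5.50 and 5.17 to 6.58 (1.28 ± 0.28, SE; adjusted p = 0.0346). RELB differed by 1.25, NFKB1 by 0.82, RELA by 0.77 and REL by −0.40, none of them called. Of 17 inhibitors and feedback genes, 4 rose, 0 fell and 13 lay above the range, with a median difference of 0.76 against 0.06 over all genes tested. TNFAIP3, the ubiquitin-editing enzyme A20, read 4.65, 5.36 and 5.58 on the controls and 8.03 with TNF (2.84 ± 0.35, SE; adjusted p = 0.00167). TNFAIP2 rose by 2.36, TNIP3, an A20-binding protein, by 1.85, and CYLD, a deubiquitinase, by 1.83. NFKBIA, which encodes IκBα, read 7.51 with TNF, inside the 7.28 to 7.86 of the controls (−0.15, adjusted p = 0.935). NFKBIE (0.87), TNIP1 (1.30) and BIRC2 (0.92) were not called. Among 20 receptors and adapters TRAF1 was called, going from 3.70 ± 0.34 (SD, n = 3) to 5.73, while the receptor gene TNFRSF1A (−0.36) and TNF itself (−0.33) lay just below the control range. NFKB2 and TRAF1 lost their calls without control 1 (adjusted p = 0.108 and 0.0703), and NFKB2 also without control 2 (0.0518) or U-CH1 control 1 or 2 (0.0515 and 0.0519). None of 21 death ligands, receptors and caspases was called by limma (at an unadjusted p under 0.05, 3 were higher and 2 lower).

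The promoters of TNFAIP3 and VCAM1, which rose, and of NFKBIA, which was not called, are shown because all 3 held the letters of the kB site to which NF-kB binds. Sequences are those of RefSeq on GRCh38.p14, from 250 bases before to 50 after the annotated start, with the matched letters in capitals.
TNFAIP3 (chr6:137867009-137867308, plus strand): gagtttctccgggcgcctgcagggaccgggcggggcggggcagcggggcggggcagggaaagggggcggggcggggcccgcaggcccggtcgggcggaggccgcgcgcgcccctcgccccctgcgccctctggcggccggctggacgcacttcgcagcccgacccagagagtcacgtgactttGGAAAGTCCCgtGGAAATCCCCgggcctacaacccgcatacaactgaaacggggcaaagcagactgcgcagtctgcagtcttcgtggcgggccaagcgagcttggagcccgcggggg
VCAM1 (chr1:100719492-100719791, plus strand): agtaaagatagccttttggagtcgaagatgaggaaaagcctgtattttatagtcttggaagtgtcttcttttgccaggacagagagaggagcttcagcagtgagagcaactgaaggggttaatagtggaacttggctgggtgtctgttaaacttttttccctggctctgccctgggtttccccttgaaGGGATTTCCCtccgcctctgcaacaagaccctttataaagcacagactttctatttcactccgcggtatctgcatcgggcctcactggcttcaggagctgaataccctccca
NFKBIA (chr14:35404700-35404999, minus strand): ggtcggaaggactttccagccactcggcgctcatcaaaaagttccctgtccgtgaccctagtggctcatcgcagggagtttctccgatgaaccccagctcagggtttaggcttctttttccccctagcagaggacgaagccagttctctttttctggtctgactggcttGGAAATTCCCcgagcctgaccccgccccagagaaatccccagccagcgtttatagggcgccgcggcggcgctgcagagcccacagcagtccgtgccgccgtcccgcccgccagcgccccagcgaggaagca
Matches began at −67 and −55 in TNFAIP3, at −62 in VCAM1 and at −81 in NFKBIA, counted from the start base as 0. The kB letters were searched on both strands and stood in 13.3% of 27305 genes with such a promoter and in 17.2% of the 12495 tested. They stood in 9 of 15 NF-kB inhibitors and feedback genes, 7 of 9 CXC chemokines, 22.2% of 189 called rises and 18.2% of 181 called falls. A match is a description of the letters, and no binding was measured. The letters searched were GGGRNNYYCC or their reverse complement, where R is A or G, Y is C or T and N is any base. ICAM1 and TNFAIP6 held no match to these letters in this window, and other forms of the kB site were not searched.

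Chemokines, cytokines and adhesion molecules held single large rises among many members that were not called. Among all genes tested, 1.47% were called higher and 1.41% lower. CCL5, a T cell chemokine, read 3.50, 3.51 and 5.43 on the controls and 8.38 with TNF (4.23 ± 0.62, SE; adjusted p = 0.00428), and it and CCL2 were the 2 called among 8 CC chemokines. Of 10 CXC chemokines CXCL5 rose by 2.65 and the neutrophil chemokine CXCL8 by 1.62, while CXCL6 fell by 1.97. CXCL10, a chemokine known to be driven by interferon and NF-kB, read 1.69, 1.47 and 1.63 on the controls and 2.41 with TNF and was not called (adjusted p = 0.184). Of 20 interleukins and growth cytokines 5 rose and 0 fell: IL36B, IL6 (from 3.10 ± 0.80, SD, n = 3, to 6.38), IL32 by 2.80, the macrophage growth factor CSF1 by 1.61 and TSLP by 1.56. VCAM1, the endothelial-type adhesion molecule for leukocytes, read 2.65, 2.33 and 1.97 on the controls and 6.27 with TNF (3.95 ± 0.30, SE; adjusted p = 0.000145). ICAM1, another ligand of leukocyte integrins, read 4.55, 4.24 and 6.75 on the controls and 8.83 with TNF (adjusted p = 0.0272), so control 3 stood more than 2 above the other controls and still below the TNF array. Of 14 adhesion molecules L1CAM also rose, by 1.41, and ALCAM fell by 2.17. L1CAM lost its call without any 1 of the MUG-Chor1 controls (adjusted p = 0.0557 to 0.115) or U-CH1 control 1 or 2 (0.0652 and 0.0641). ICAM1 lost its call without control 1 (adjusted p = 0.0796) or U-CH1 control 1 or 2 (0.0667 and 0.0573), CXCL8 without control 1 (0.0570), and CSF1 without control 1 or 2 (0.0783 and 0.0603).

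A few innate defence genes rose, where 1.47% of all genes tested were called higher and 1.41% lower. Of 17 complement and acute phase genes 5 rose and 0 fell, TNFAIP6, PTX3, FDCSP (by 2.87), the elastase inhibitor PI3 (by 2.16) and complement factor B, CFB (by 2.08). Complement C3 read 5.10 and 4.99 on controls 1 and 2, 8.52 on control 3 and 7.57 with TNF, inside the control range, and was not called. The list's median was 0.67 against controls 1 and 2 and −0.03 against control 3. PDCD1LG2, which encodes the checkpoint ligand PD-L2, went from 4.13 ± 0.34 (SD, n = 3) to 6.68 and was the 1 called of 12 checkpoint genes. CTSS, a protease that trims the MHC class II invariant chain, rose by 2.95. None of 20 MHC class I and immunoproteasome genes was called by limma, and their median was 0.58. Of these 14 lay above the control range, against 35.3% of all genes tested, and TAP1 (1.18) and TAPBP (1.15) were highest. At an unadjusted p under 0.05, 5 were higher and 0 lower, against 1265 and 879 of all 16986 genes tested. CFB lost its call without control 1 (adjusted p = 0.0547), and PI3 without control 1 or 2 (0.114 and 0.0786) or any 1 of the U-CH1 controls (0.0714 to 0.0811).

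Of 48 interferon-stimulated genes 1 rose and 0 fell, where 1.47% and 1.41% of all genes tested were called. GBP2, a guanylate-binding protein, went from 2.17 ± 0.29 (SD, n = 3) to 4.61, and its other probe set differed by 0.95. Of the list 8 lay above the control range and 22 below it, against 35.3% and 23.9% of all genes tested. The list's median was −0.28. In U-CH1 the same list had a median of 1.32. IFIT1, an antiviral RNA-binding protein, read 3.65, 4.04 and 4.93 on the MUG-Chor1 controls and 2.92 with TNF, below all 3, and was not called (−1.29, adjusted p = 0.246). The difference between lines was called as smaller in MUG-Chor1 for 6 of the 48: IFIT1, OAS1, OAS2, BST2, SAMD9 and IFIH1, of which all but IFIT1 are named after their values were seen. On control 3 this list averaged 0.29 above the control mean, and on the TNF array it averaged −0.13. The promoter of IFIT1 is shown for its interferon response elements, GAAANNGAA or its reverse complement.
IFIT1 (chr10:89392373-89392672, plus strand): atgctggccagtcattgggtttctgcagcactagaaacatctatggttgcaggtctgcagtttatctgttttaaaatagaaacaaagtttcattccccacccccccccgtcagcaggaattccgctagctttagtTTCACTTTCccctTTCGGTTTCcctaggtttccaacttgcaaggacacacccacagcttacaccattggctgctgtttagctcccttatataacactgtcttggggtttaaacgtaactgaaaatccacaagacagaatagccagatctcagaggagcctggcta
Counting genes with a promoter, the element stood in 31 of 38 of the list, in 8.59% of the genes tested and in 9.86% of all genes.

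Of 8 plasminogen activator and surface protease genes 4 rose and 4 were not called, where 1.47% of all genes tested were called higher. All 8 lay above the control range, against 35.3% of all genes tested. MME (neprilysin) was called and went from 4.46, 4.54 and 3.43 to 8.63. Also called were FAP (fibroblast activation protein), DPP4 and the urokinase receptor PLAUR, which rose by 3.74, 1.89 and 1.51. MMP3, stromelysin 1, read 2.38, 2.29 and 2.14 on the controls and 5.84 with TNF (3.57 ± 0.26, SE; adjusted p = 0.000127) and was the 1 called of 24 metalloproteinase, cathepsin and inhibitor genes. TNC (tenascin C) rose by 2.94, LOX, a collagen crosslinking enzyme, by 2.93, and integrin ITGB3 by 2.35. LUM, the proteoglycan lumican, read 7.54, 7.45 and 5.99 on the controls and 10.65 with TNF. DPP4 and PLAUR lost their calls without control 1 (adjusted p = 0.0656 and 0.0594), DPP4 also without any U-CH1 control (0.0553 to 0.0567) and PLAUR without U-CH1 control 1 or 3 (0.0600 and 0.0515).

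Several genes that mark chordoma fell. Of 19 identity markers 6 fell and 0 rose, with a median of −0.98, where 1.41% of all genes tested were called lower. Below the control range lay 15, against 23.9% of all genes tested. TBXT read 9.46, 9.44 and 9.40 on the controls and 7.51 with TNF, 3.79-fold lower (−1.92 ± 0.29, SE; adjusted p = 0.00541). KRT19, a keratin of simple epithelia, read 9.83, 9.86 and 9.76 on the controls and 6.74 with TNF (−3.08 ± 0.25, SE; adjusted p = 0.000153), and CD24, a surface sialoglycoprotein, 9.97, 9.89 and 10.07 against 6.98. In these genes the 3 controls agreed closely and the TNF array lay far below them. SOX9 fell by 2.28, SOX5 by 2.45 and SOX6 by 1.92, the trio of SOX factors that drive cartilage genes. KRT18 (−1.49), KRT8 (−0.42), MUC1 (−0.75) and S100A1 (−0.94) were not called, and S100B read 2.74 with TNF, inside the control range. EGFR (0.41), the highest of the list, and FOXA2 (0.09) lay above the control range and were not called. SOX6 lost its call without control 1 (adjusted p = 0.0703) or any U-CH1 control (0.0615 to 0.0780).

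Several cartilage matrix genes also fell. Of 24, 7 fell and 2 rose, with a median of −0.22, where 1.41% of all genes tested were called lower and 1.47% higher. Below the control range lay 12 and above it 4, against 23.9% and 35.3% of all genes tested. ACAN, which encodes aggrecan, the main cartilage proteoglycan, read 8.16, 8.34 and 8.75 on the controls and 4.33 with TNF, 17.0-fold lower (−4.09 ± 0.35, SE; adjusted p = 0.000216). Its link proteins HAPLN1 and HAPLN3 fell by 3.47 and 2.86, PRELP fell by 3.68, type II collagen COL2A1 by 2.82, COL11A1 by 1.96 and fibromodulin FMOD, named after its values were seen, by 1.74. XYLT1, which starts glycosaminoglycan chains on proteoglycans, read 9.43, 9.60 and 9.31 on the controls and 4.87 with TNF (−4.58 ± 0.29, SE; adjusted p = 4.06e-05). LUM and the small proteoglycan DCN (by 1.60) were the 2 that rose, and DCN lost its call without control 1 or 2 (adjusted p = 0.106 and 0.0836) or U-CH1 control 1 (0.0627). Of 25 collagen and crosslinking genes 1 rose and 2 fell, COL6A3 by 2.28 and COL5A2 by 1.74, and COL5A2 lost its call without control 1 (adjusted p = 0.0701). The collagen list did not hold COL2A1 or COL11A1, which stood in the cartilage list. The list of integrins and laminins, 27 genes tested, also held TNC, which is neither. Of the 27, 2 rose, TNC among them, and 5 fell, among them ITGB4 by 2.23 and LAMA4 by 2.10. The number that fell was 2 without control 1 and 3 without control 2. Of 23 epithelial and mesenchymal genes 0 rose and 2 fell, among them the epithelial cadherin CDH1 by 1.98. CDH10, a type II cadherin, read 7.95, 8.47 and 8.33 on the controls and 3.53 with TNF.

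A few markers of other cell types also differed on the same array. The summed linear signal of the 8 chordoma markers was 3548 to 3750 on the controls and 589 with TNF, and without its brightest member, CD24, 2549 to 2672 and 463. The sum of 10 measured fibroblast markers was 131 to 291 on the controls and 1731 with TNF, mostly from LUM: without it the sums were 67.3 to 105 and 127. Of the 9 fibroblast markers tested, FAP, LUM and DCN rose, while THY1 (3.80, controls 3.99 to 4.93), COL1A1 (3.91, controls 3.65 to 4.92), POSTN (2.40, controls 2.08 to 2.62) and PDGFRB (3.43, controls 3.81 to 4.33) were not called. The sum for 13 leukocyte markers was 343 to 375 on the controls and 654 with TNF, with PTPRC at 1.14 and CD3E at 1.51. CD68, a lysosomal protein of many cells, read 9.17 against a control mean of 8.17 and was not called by limma (adjusted p = 0.102). Without CD68 the leukocyte sum was 69.7 to 82.5 on the controls and 78.0 with TNF. The sum for 9 endothelial markers was 143 to 239 on the controls and 77.5 with TNF, where KDR fell by 2.37 and CDH5 read 2.05. Without KDR it was 52.2 to 55.4 on the controls and 51.4 with TNF. The part of any shift in cell makeup in these results was not tested, and fewer cells of a type and less RNA per cell cannot be told apart in bulk RNA.

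A few growth-factor response genes fell steeply, where 1.41% of all genes tested were called lower. Of 21 immediate early genes, which encode factors made within minutes of a stimulus, 4 fell and 0 rose, with a median of −0.89. Below the control range lay 15, against 23.9% of all genes tested. FOS read 7.10, 7.82 and 8.34 on the controls and 2.84 with TNF (−4.92 ± 0.47, SE; adjusted p = 0.000406), EGR1 8.38, 8.52 and 8.50 against 3.75 (−4.71 ± 0.37, SE; adjusted p = 0.000145), and FOSB 8.34, 8.35 and 8.23 against 3.66, a difference of −4.65, with −1.75 at its other probe set. The TNF array lay more than 4 below the lowest control in each. ZFP36, which marks messenger RNAs for decay, fell by 2.11, IER3 (0.85) was not called, and the ETS factor ETV1 fell by 3.75. The promoter of EGR1 is shown because it held 2 CArG boxes, the letters bound by serum response factor. Counting genes with a promoter, the box stood in 1.63% of the genes tested and 1.60% of all genes.
EGR1 (chr5:138465229-138465528, plus strand): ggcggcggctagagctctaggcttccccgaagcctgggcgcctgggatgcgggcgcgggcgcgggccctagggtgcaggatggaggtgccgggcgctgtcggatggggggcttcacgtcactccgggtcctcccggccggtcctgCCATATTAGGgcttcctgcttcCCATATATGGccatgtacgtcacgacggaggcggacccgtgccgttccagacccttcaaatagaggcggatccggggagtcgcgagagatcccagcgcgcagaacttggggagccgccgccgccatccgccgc
The boxes of EGR1 began at −105 and −83. A promoter of 2 of 17 immediate early genes held the box, with FOS and FOSB among those without it in this window.

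**Figure D3:**
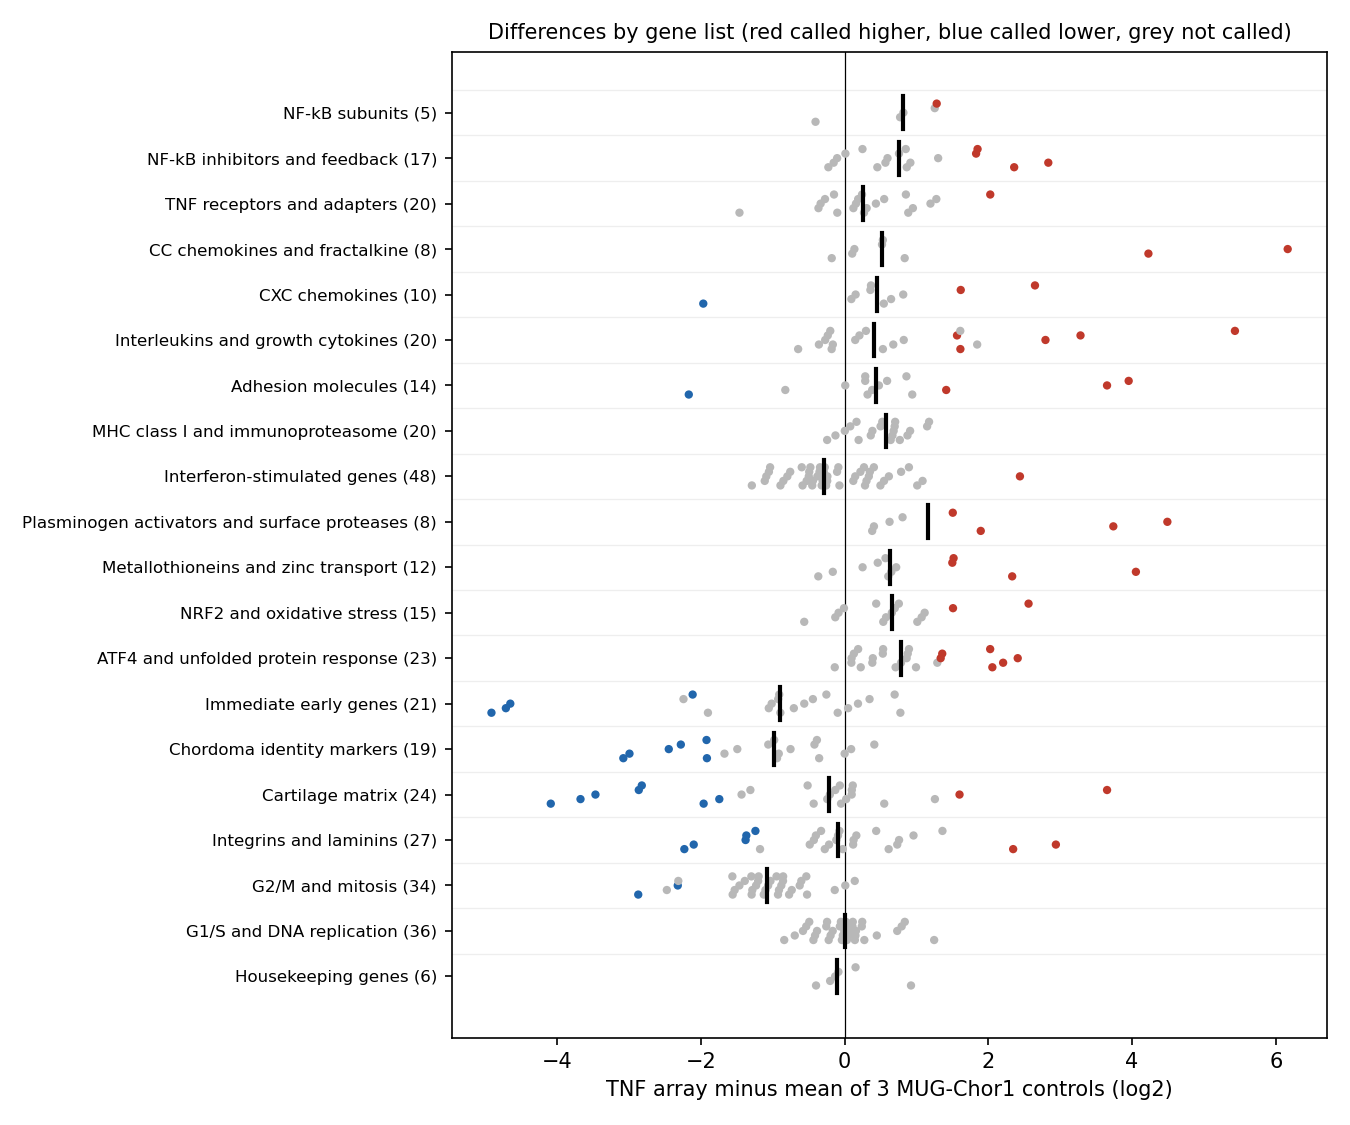
Difference between the TNF array and the mean of the 3 MUG-Chor1 controls (x axis, log2) for each tested member of 20 gene lists, with the number tested in brackets. Points are genes, red called higher, blue called lower and grey not called, and black bars are list medians, from 1.16 for plasminogen activators and surface proteases to −1.08 for G2/M and mitosis.

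Genes of mitosis read low on the TNF array, and their calls turned on the control used. Of 34 G2/M genes 28 lay below the control range and 0 above it, against 23.9% below and 35.3% above over all genes tested. At an unadjusted p under 0.05, 20 were lower, against 879 of all 16986 genes tested. After adjustment 2 were called, where 1.41% of all genes tested were called lower. KIF20A, a kinesin of cytokinesis, read 7.15, 5.87 and 7.53 on the controls and 3.98 with TNF (−2.87 ± 0.62, SE; adjusted p = 0.0339), and ASPM, a spindle pole protein, 6.26, 5.27 and 6.89 against 3.82 (adjusted p = 0.0300). PLK1, the polo-like kinase, read 6.70, 6.40 and 7.89 against 4.68 (adjusted p = 0.0684), and DLGAP5, a spindle protein, 5.59, 4.70 and 7.06 against 3.31 (adjusted p = 0.0840); both are named after their values were seen. Averaged over the list, control 1 read −0.07, control 2 −0.65, control 3 0.72 and the TNF array −1.13 relative to the control mean, so the controls differed among themselves by more than control 2 differed from the TNF array. The median was −0.78 against controls 1 and 2 and −1.77 against control 3. Without control 1, 0 of the 34 were called (KIF20A at an adjusted p of 0.102, ASPM at 0.0915), without control 2 there were 10, without control 3 there were 3, and 14 with control 3 alone. KIF20A also missed without U-CH1 control 1 (0.0770) and ASPM without any U-CH1 control (0.0520 to 0.0694). The 36 G1/S and DNA replication genes had a median of 0.00, with 7 above the control range, 6 below and 0 called by limma (at an unadjusted p under 0.05, 3 were higher and 2 lower).

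Promoters of mitotic genes often hold the CHR element, TTTGAA or its reverse complement, through which these genes are regulated over the cell cycle. ASPM, PLK1 and DLGAP5 are shown with it in capitals.
ASPM (chr1:197146620-197146919, minus strand): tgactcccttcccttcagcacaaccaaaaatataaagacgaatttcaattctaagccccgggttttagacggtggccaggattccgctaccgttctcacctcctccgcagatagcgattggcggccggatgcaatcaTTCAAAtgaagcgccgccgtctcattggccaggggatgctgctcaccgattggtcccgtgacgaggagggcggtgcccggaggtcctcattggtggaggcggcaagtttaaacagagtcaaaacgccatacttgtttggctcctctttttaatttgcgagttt
PLK1 (chr16:23678639-23678938, plus strand): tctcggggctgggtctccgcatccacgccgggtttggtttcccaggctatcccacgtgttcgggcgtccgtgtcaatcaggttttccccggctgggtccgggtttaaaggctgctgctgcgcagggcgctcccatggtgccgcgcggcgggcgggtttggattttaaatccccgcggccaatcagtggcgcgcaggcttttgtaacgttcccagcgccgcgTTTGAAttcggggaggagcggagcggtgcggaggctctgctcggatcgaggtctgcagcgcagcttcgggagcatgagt
DLGAP5 (chr14:55191536-55191835, minus strand): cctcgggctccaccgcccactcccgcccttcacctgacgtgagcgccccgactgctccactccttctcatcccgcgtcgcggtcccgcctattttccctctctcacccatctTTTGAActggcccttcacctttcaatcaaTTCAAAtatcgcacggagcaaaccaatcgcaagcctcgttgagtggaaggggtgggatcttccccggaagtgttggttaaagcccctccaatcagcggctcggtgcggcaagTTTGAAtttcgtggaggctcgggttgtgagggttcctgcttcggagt
Counting genes with a promoter, the element stood in 21 of 28 G2/M genes, 1 of 30 G1/S genes and 14.2% of genes tested (18.2% of all genes). It stood in 22.1% of 181 called falls and 11.1% of 189 called rises, and KIF20A held none in this window. Of the 12495 genes tested that had a promoter, 26 had overlapping matches of 2 of the 4 motifs searched.

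**Figure D4:**
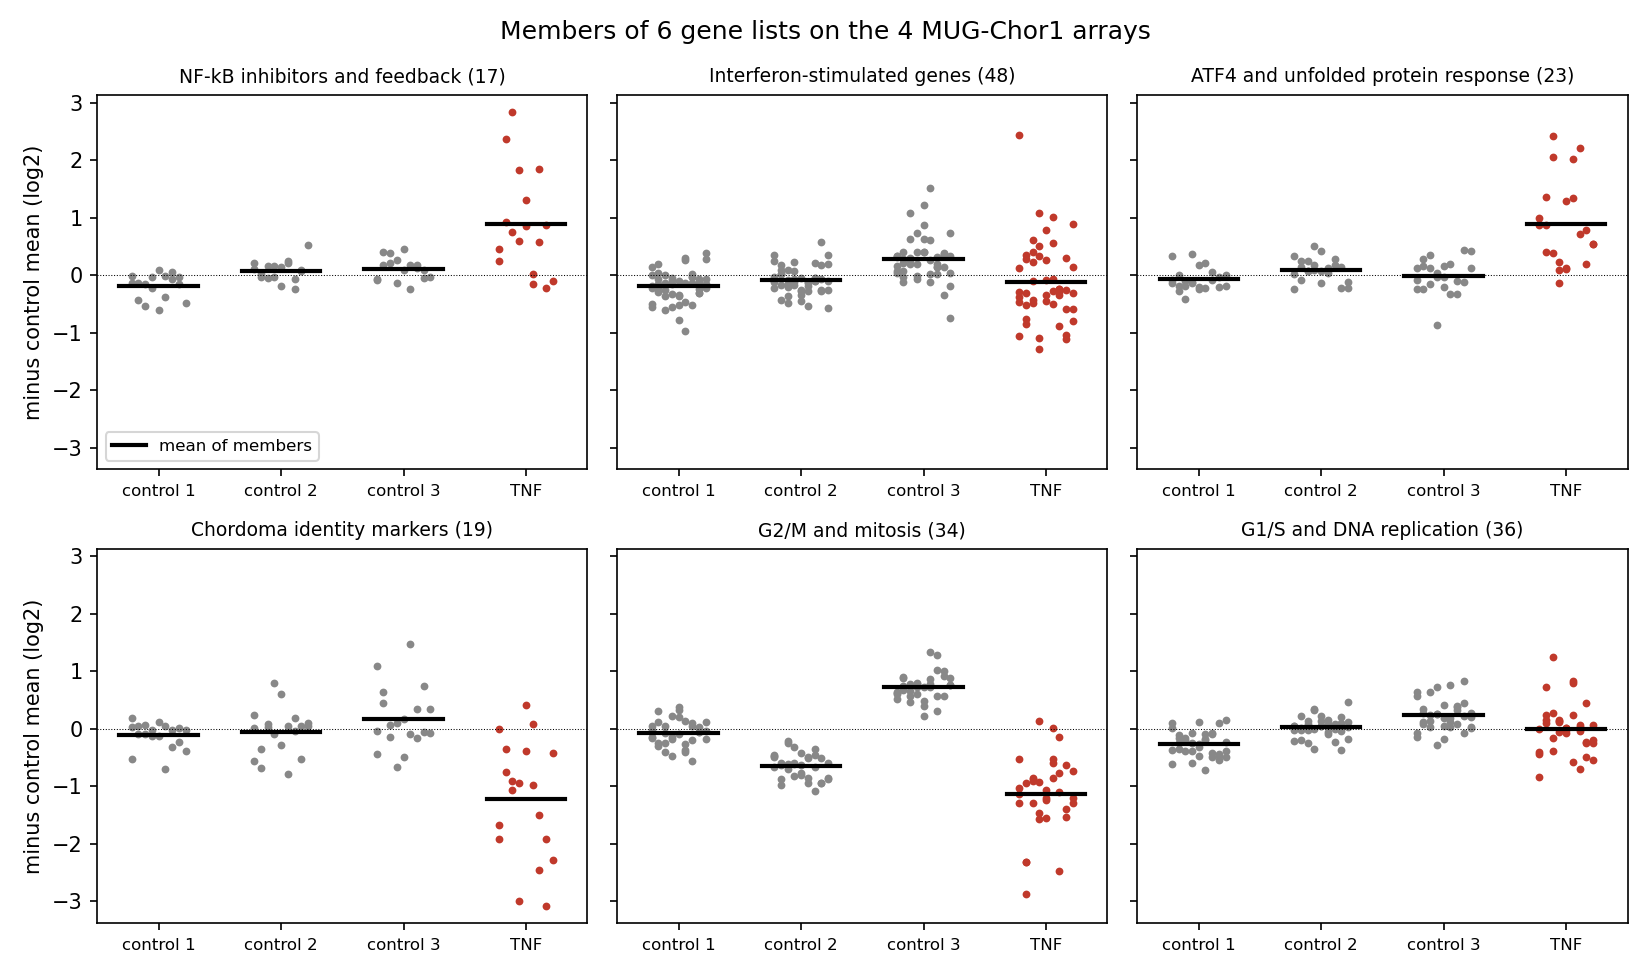
Members of 6 gene lists on each MUG-Chor1 array, as log2 signal minus the gene's control mean (y axis), with grey points for controls, red points for the TNF array and black bars for the mean of the members. G2/M genes differ between the controls, from −0.65 on control 2 to 0.72 on control 3, and average −1.13 with TNF, while the mean of the G1/S genes is 0.00 with TNF, over members from −0.84 to 1.25.

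Some stress response genes rose, where 1.47% of all genes tested were called higher. Of 23 ATF4 and unfolded protein response genes 6 rose and 0 fell, with a median of 0.79 against −0.09 for the same list in U-CH1. Above the control range lay 18, against 35.3% of all genes tested. The 6 that rose were CHAC1, which degrades glutathione, by 2.41, the serine synthesis enzymes PSAT1 (from 5.58 ± 0.16, SD, n = 3, to 7.78) and PHGDH by 1.34, TRIB3 by 2.06, DDIT4 by 2.03 and the amino acid transporter SLC7A5 by 1.36. The chaperone HSPA5, named after its values were seen, read 9.96 with TNF against 8.85 to 9.33 on the controls and was not called. SLC7A11, the cystine transporter, rose by 2.56 and SRXN1 by 1.51 (0.47 at its other probe set), 2 of 15 NRF2 and oxidative stress genes. Of 12 metallothionein and zinc transport genes MT1G rose by 4.05, the zinc importers SLC39A8 by 2.33 and SLC39A14 by 1.52, and MT1H rose from 1.96 ± 0.09 (SD, n = 3) to 3.46. MT1G read 4.19, 3.66 and 6.02 on the controls and 8.68 with TNF, and near-identical relatives leave the identity of metallothionein signals uncertain. Of 20 p53 targets DRAM1 rose by 3.82, SESN2 by 2.50, GDF15 by 2.44 and GADD45A by 1.76, and MDM2 (−0.63) was not called. Without control 1 the calls of CHAC1, PHGDH, SLC7A5, SRXN1, SLC39A14 and MT1H were lost (adjusted p = 0.0563 to 0.123), and all of these but CHAC1 were also lost without control 2 (0.0525 to 0.0958). MT1H also missed without control 3 (0.0550) or U-CH1 control 1 (0.0832), SLC39A14 without U-CH1 control 1 (0.0572) and SLC7A5 without U-CH1 control 2 or 3 (0.0517 and 0.0511).

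Fat, prostaglandin and signalling genes were mixed, where 1.47% of all genes tested were called higher and 1.41% lower. PTGES, the inducible prostaglandin E synthase, went from 4.75 ± 0.28 (SD, n = 3) to 7.96, while PTGS2, the cyclooxygenase upstream of it, fell from 6.58, 7.21 and 7.21 to 4.88 (−2.12 ± 0.33, SE; adjusted p = 0.00629). None of 17 cholesterol and fatty acid synthesis genes was called by limma (at an unadjusted p under 0.05, 3 were higher and 0 lower). PDK4, a kinase that restrains pyruvate use, fell by 3.52, FABP4 by 3.54 and carbonic anhydrase CA2 by 3.47. HES1, a Notch target, read 8.30, 8.46 and 9.23 on the controls and 4.55 with TNF, and the Notch ligand JAG1 8.65, 8.39 and 7.92 against 6.49. Of 20 YAP and TEAD targets 3 rose, among them ANKRD1 by 4.55, and CCN2 fell by 2.94. ADM, the peptide adrenomedullin, rose by 2.57 and was the 1 called of 24 glycolysis and hypoxia genes, and ATP6V0D2 was the 1 called of 17 lysosome genes. FABP4 lost its call without control 1 (adjusted p = 0.0510). The largest fall carried the name RNASE2CP (9.21, 8.71 and 9.85 on the controls, 3.42 with TNF), a pseudogene close in sequence to RNASE2 (by −3.65), so which of them gave the signal is uncertain.

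Control 3 stood apart from controls 1 and 2 in a set of genes. Where the other 2 controls agreed within 0.5, control 3 lay more than 1 from their mean in 587 of 14871 genes (3.95%), control 1 in 0.405% of 12832 and control 2 in 0.509% of 12773. Control 3 was higher in 414 of the 587 and lower in 173. CXCL14, a chemokine of epithelia, read 3.87 and 3.87 on controls 1 and 2, 8.10 on control 3 and 5.93 with TNF. The keratin KRT4 read 3.46 and 3.34, then 6.74 on control 3 and 2.20 with TNF, and the gelatinase MMP2 7.74 and 7.62, then 4.66 and 8.24 with TNF. SPP1, osteopontin, read 10.36 and 10.27, then 7.67 on control 3 and 6.34 with TNF. Of the 587 genes the TNF array lay inside the control range for 368, and 24 were called. Of the 489 called genes control 3 lay within 1 of the other controls in 456, more than 1 toward the TNF array in 19 (16 that rose, 3 that fell) and more than 1 away from it in 14. Without control 3 there were 664 calls, 462 of them shared with the 489, and with control 3 alone 352 calls, 250 shared. Genes more than 1 above the control range numbered 555 without control 3 and 705 with it alone, those below 462 and 793.

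The TNF difference itself was compared between MUG-Chor1 and U-CH1. It was called as larger in MUG-Chor1 for 34 genes (0.200%) and as smaller for 56 (0.330%). The sign is kept, so a deeper fall in MUG-Chor1 counts as smaller. Of the 34, 27 were called higher in MUG-Chor1 and 7 called lower in U-CH1. TNFAIP6 rose by 5.51 in MUG-Chor1 and read 2.63 with TNF against 2.00 ± 0.14 (SD, n = 3) in U-CH1, a difference between lines of 4.88 ± 0.38 (SE; adjusted p = 0.000498). ATP6V0D2, NMB, FAP, MORC1 and MMP3 had line differences of 3.77 to 4.87, with U-CH1 differences of −0.21 to 0.50. Of the 56, 32 were called lower in MUG-Chor1 and 23 called higher in U-CH1, with JAG1 among the 2 in both. In U-CH1, CXCL10 read 1.82 ± 0.18 (SD, n = 3) on the controls and 8.91 with TNF, and it was not called in MUG-Chor1 (line difference −6.27 ± 0.38, SE; adjusted p = 0.000132). EXOC1L went from 5.73 ± 0.16 (SD, n = 3) to 0.81 in MUG-Chor1 and read 1.17 ± 0.09 (SD, n = 3) without TNF in U-CH1, 1 of 8 of those 32 with a U-CH1 control mean under 2.57, where the signal was already dim. EGR1 (−4.14), XYLT1 (−4.28), ACAN (−3.31), KRT19 (−2.05) and CD24 (−2.47) had called line differences, while CCL2, CCL5, TNFAIP3 and TBXT did not. Of the 489 MUG-Chor1 calls 61 were also called in U-CH1 and 60 had a called line difference. Leaving out single controls gave 12 to 64 genes with larger and 22 to 88 with smaller differences: without MUG-Chor1 control 1, 2 and 3 there were 14, 18 and 64 larger and 28, 30 and 88 smaller, and without U-CH1 control 1, 2 and 3 there were 17, 15 and 12 larger and 22, 25 and 26 smaller.

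**Figure D5:**
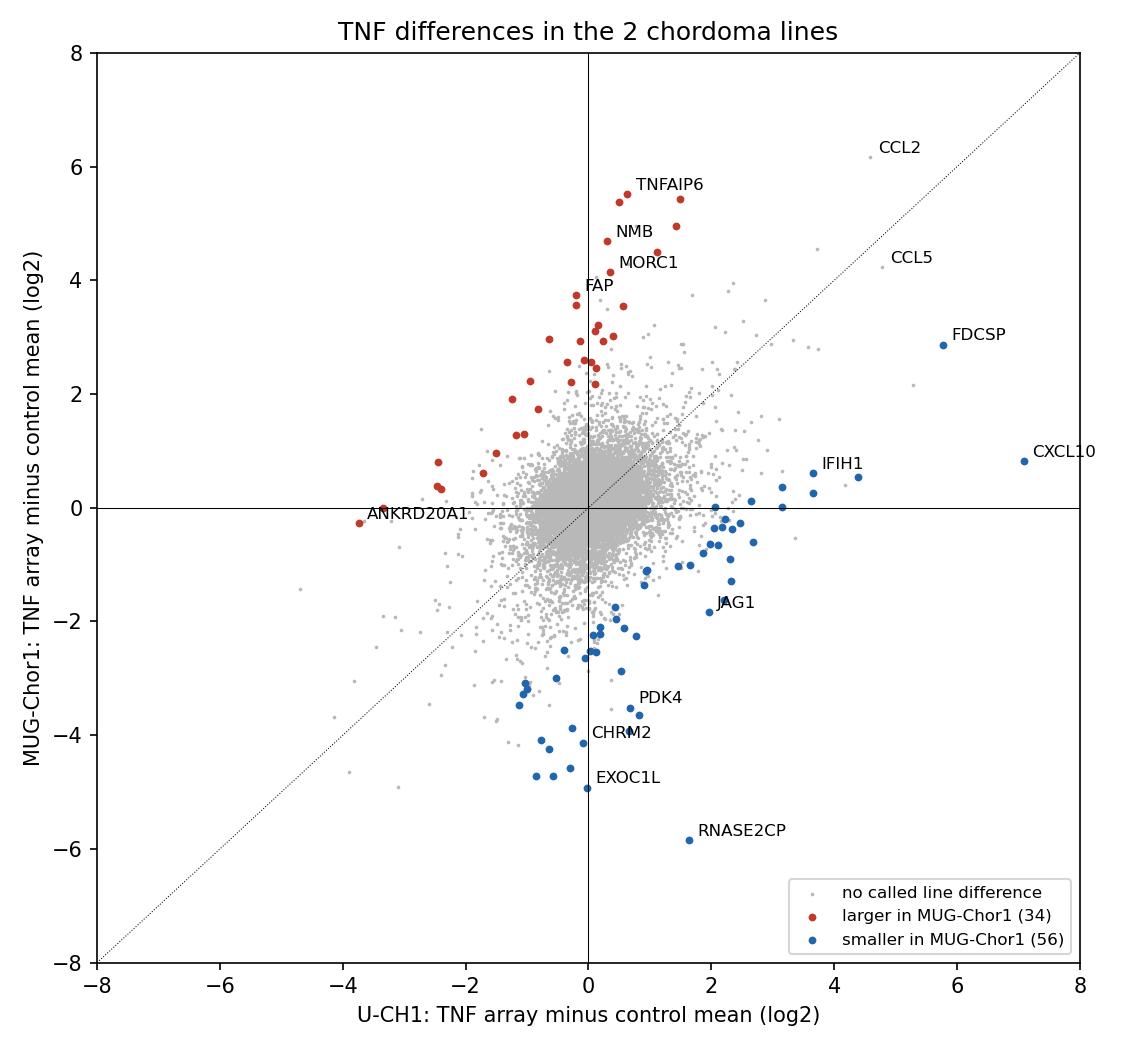
TNF difference in MUG-Chor1 (y axis, log2) against that in U-CH1 (x axis, log2) for 16986 genes, each the TNF array minus the mean of 3 controls of its line. Red points are the 34 genes whose difference was called larger in MUG-Chor1, blue points the 56 called smaller, and the dotted line marks equal differences.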

How the data were processed

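RNA from 2 chordoma lines, each with 3 control arrays and 1 TNF array, had been labelled with the WT PLUS kit for human expression arrays. The authors deposited 1 normalized value per probe set and array, and the submitters' processing notes name RMA and the Transcriptome Analysis Console. The log base is not stated, and the deposited values, from 0.0648 to 12.7, were taken as log2. For the array annotation, no genome build is given in the sources used here. Because RMA gives all arrays a like distribution, a shift common to most genes would not be seen.

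Of 53617 probe sets, 23871 carried exactly 1 symbol, 1842 several and 27904 none in the platform table used. Symbols were updated through RefSeq (GRCh38.p14), where 22569 matched and 90 changed. For 632 of the 22395 genes the probe set brightest on average was used. The 16986 genes that exceeded 2.57, the overall median, on 1 array or more were tested.

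A model of 4 group means over 8 arrays was fitted with limma 3.58.1 (R 4.3.3), using lmFit and then eBayes. Its two-sided p-values were adjusted by Benjamini-Hochberg over the genes tested, with a threshold of 0.05. It has 4 residual degrees of freedom, all from controls, and assumes that a TNF array varies like a control. The fit was tested on simulated data. Distances outside the control range and gene lists were described with no test. Promoters were searched for 4 motifs on both strands.

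The genes, lists and motifs were chosen with earlier results of these data known. Named were the 25 largest called rises and falls, up to 6 called members of each list each way (where none was called, the member with the smallest p), each list's highest and lowest member, the 10 largest line differences each way and the 10 genes with the largest and smallest shift of control 3. All NF-kB, TNF receptor and chordoma identity members could be named, and others were chosen after their values were seen. Alternatives covered the filter, probe sets, normalization, centring, variance model, threshold, arrays in the fit and each control left out. The count of called list members without each control, and marker sums without the brightest marker, were added after seeing the data.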

Additional observations from a re-analysis of the deposited data

Results flagged for a closer look

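The TNF difference was called as differing between the lines, from limma, for 34 genes with a larger and 56 with a smaller value in MUG-Chor1 than in U-CH1. Values in brackets are the MUG-Chor1 difference minus the U-CH1 difference, on the log2 scale. Among named genes it was larger in MUG-Chor1 for TNFAIP6 (4.88), ATP6V0D2 (4.87), NMB (4.39), FAP (3.95), IL36B (3.94), MORC1 (3.79), MMP3 (3.77), F2RL2 (3.61) and INA (3.53). It was also larger for ANKRD20A1 (3.46), MME (3.37), LOX (3.06), MAP2 (3.06), GREM1 (2.99), ADM (2.91), TNC (2.70), SLC7A11 (2.52) and PSAT1 (2.50). It was smaller in MUG-Chor1 for KRT19 (−2.05), ITGB4 (−2.30), HAPLN1 (−2.34), CD24 (−2.47), PTGS2 (−2.70), FDCSP (−2.91), ACAN (−3.31), HAPLN3 (−3.40), IFIT1 (−3.61), TMEM163 (−3.61) and FGL2 (−3.61). It was also smaller for JAG1 (−3.79), CDH10 (−3.87), CHRM2 (−4.03), EGR1 (−4.14), PDK4 (−4.19), XYLT1 (−4.28), RNASE2 (−4.47), HHLA2 (−4.60), EXOC1L (−4.90), CXCL10 (−6.27) and RNASE2CP (−7.48). ANKRD20A1 is among the genes called lower in U-CH1, and CXCL10 among those called higher there. The sign is kept, so larger and smaller do not rank the size of the response. Smaller held deeper falls in MUG-Chor1 (KRT19, −3.08 against −1.03 in U-CH1) and weaker rises (FDCSP, 2.87 against 5.78). For ANKRD20A1, called larger, the differences were −0.27 in MUG-Chor1 and −3.74 in U-CH1.

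Probe sets with no symbol or several entered no comparison. Of 15238 such probe sets above the median of all values on at least 1 array, 252 (1.65%) lay more than 1 above the 3 MUG-Chor1 controls with TNF and 246 (1.61%) more than 1 below them.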

How the results depend on the processing

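No named call changed direction under any alternative run. Genes that rose numbered 137 to 346 when 1 control was left out, 143 with the MUG-Chor1 arrays alone, 144 with control 3 as the only control and 107 at an adjusted p under 0.01, against 250. Genes that fell numbered 147 to 318, 153 with the MUG-Chor1 arrays alone and 122 at 0.01, against 239. Genes more than 1 above the control range numbered 400 to 555 with 1 control left out, 705 with control 3 alone and 69 at a margin of 2, and those below 377 to 462, 793 and 79. Line differences called larger numbered 12 to 64 with 1 control left out and 6 at 0.01, and those called smaller 22 to 88 and 8. The filter, the choice of probe set, quantile normalization, median centring and the variance model kept each count within 1.5 times. The cause of these shifts was not tested. Fits that leave a control out also hold fewer arrays. No paired analysis was possible because the MUG-Chor1 TNF group holds 1 array, so the groups share fewer than 2 replicate numbers. With 1 TNF array, a difference between cultures and an effect of TNF cannot be told apart. The files used hold no detection call, so how far a dim gene lay above background was not measured.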
